A study of Mus musculus with 4 samples.

Results

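The response of control 3T3-L1 cells to adipogenic induction was read from 2 of the 4 arrays of the series. 3T3-L1 is a mouse preadipocyte line that becomes fat cells when confluent cultures are given adipogenic hormones. The control day 0 array held RNA of cells grown to confluence in medium with 10% serum. The control day 2 array held RNA of cells that were then kept for 2 days in the same medium to which insulin (160 nM), the steroid dexamethasone (250 nM) and isobutylmethylxanthine (0.5 mM) were added. The other 2 arrays held lamp2a- cells, in which lamp2a was knocked down by a method not given in the sources used here, at day 0 and day 2 of the same scheme, and they appear here only as values set beside those of control cells. Each group had 1 array, and no array used here held cells kept without the hormones until day 2, so hormones and time cannot be told apart.

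Each component of the induction medium works through a known route. Insulin acts through the insulin and IGF1 receptors and their IRS adaptor proteins. Dexamethasone activates the glucocorticoid receptor, a transcription factor that raises many genes directly and restrains inflammatory ones. Isobutylmethylxanthine blocks the phosphodiesterases that break down cyclic AMP (cAMP), so that protein kinase A stays active. In these cells the early factors Cebpb and Cebpd precede Pparg and Cebpa, which switch on the genes of lipid storage.

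The stretches of promoter sequence printed here were picked because they hold a match to an element named with them, and they do not stand for their classes. The interferon response element is bound by complexes of STAT and IRF proteins, and the sequences below, from RefSeq on build GRCm38.p6, hold it in interferon-stimulated genes that were far lower at day 2. Each is written 5′ to 3′ along the gene and ends before the transcription start, and the capitals mark matches, on either strand, to GAAA, any 2 bases, GAAA, with overlapping matches joined.
Ifit3, chr19:34583348-34583441 (+): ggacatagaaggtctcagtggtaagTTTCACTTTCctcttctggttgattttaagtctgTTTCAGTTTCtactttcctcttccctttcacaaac
Ifit3b, chr19:34607744-34607837 (+): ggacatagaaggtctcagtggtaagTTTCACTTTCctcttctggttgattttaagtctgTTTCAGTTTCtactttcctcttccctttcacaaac
Ifit1, chr19:34640760-34640838 (+): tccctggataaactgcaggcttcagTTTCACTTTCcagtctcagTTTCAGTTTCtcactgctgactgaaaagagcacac
Isg15, chr4:156200850-156200921 (-): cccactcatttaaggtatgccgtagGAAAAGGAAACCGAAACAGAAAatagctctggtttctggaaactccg
Oas1a, chr5:120907526-120907570 (-): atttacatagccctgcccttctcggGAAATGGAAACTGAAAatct
Gbp3, chr3:142559974-142560039 (+): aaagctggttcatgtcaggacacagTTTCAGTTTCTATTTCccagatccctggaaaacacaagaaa
Igtp, chr11:58199497-58199555 (+): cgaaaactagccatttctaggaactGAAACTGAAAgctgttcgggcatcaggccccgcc
Irgm1, chr11:48871421-48871475 (-): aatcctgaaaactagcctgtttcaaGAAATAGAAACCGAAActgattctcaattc
The printed stretches of Ifit3 and Ifit3b are the same letter for letter, so which of these near-identical copies a probe reads is uncertain. In Oas1a the last match ends 5 bases before the start, and in Isg15 3 overlapping matches form an unbroken run of A-rich repeats.

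For the hormone-responsive genes, the capitals below mark the palindromic glucocorticoid response element (GNACA, any 3 bases, TGTNC) in Sgk1 and Map3k6 and the cAMP response element TGACGTCA in Dusp1. Sgk1, a kinase gene, and Map3k6, a MAP kinase kinase kinase gene, are known glucocorticoid targets, and Dusp1, a MAP kinase phosphatase gene, responds to glucocorticoids and to cAMP.
Sgk1, chr10:21993677-21993739 (+): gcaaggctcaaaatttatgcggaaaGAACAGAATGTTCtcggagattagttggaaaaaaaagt
Map3k6, chr4:133240612-133240674 (+): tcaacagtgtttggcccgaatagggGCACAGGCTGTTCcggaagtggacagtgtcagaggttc
Dusp1, chr17:26508583-26508640 (-): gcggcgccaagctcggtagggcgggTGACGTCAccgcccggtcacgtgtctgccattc
Of these genes, Dusp1 was 7.42-fold and Map3k6 2.29-fold higher at day 2, and Sgk1 differed by 1.18-fold.

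The promoter table covers 250 bases before to 50 after each start and held 26 of the 35 interferon-stimulated genes compared. Both strands were searched. The interferon element was found in 15 of these 26 genes (57.7%), against 3.99% of all 27025 genes in the table and 3.44% of its promoters. It was found in 7.60% of genes at least 2-fold lower at day 2, in 4.76% of genes at least 2-fold higher and in 3.14% of genes that were neither. Among lower genes outside the interferon list the share was 5.85%. The cAMP element was in 1 of 11 cAMP-responsive genes with a promoter in the table, against 2.03% of all genes there. By call it was in 2.23% of higher genes, in 1.29% of lower genes and in 3.95% of genes that were neither. The glucocorticoid element was in 3 of 21 glucocorticoid-responsive genes, against 0.537% of all genes, and in 0.893%, 0.644% and 0.299% of higher genes, lower genes and genes that were neither. A match describes the letters in this window and is no evidence that a factor binds there.

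Signals are given as scaled signals: the processed intensity of a probe after each array was scaled to its own 75th percentile and brought to a common level, so that the ratio of 2 signals is the fold difference. Genes are represented by their brightest probe and enter if the processed signal exceeded 400 on at least 1 control array. In this way 11415 genes were compared, of 20968 named genes on the array. The words higher and lower, where a count is given, mean a difference of at least 2-fold between the signals. Since each day has a single array, no spread between replicates is known and no test was run. By this size 875 genes (7.67%) were higher at day 2 and 1035 (9.07%) were lower, and the median log2 ratio of all genes compared was 0.01. Of the called genes 45.8% were higher, a share that was 33.6% after cyclic loess and 37.0% after quantile normalization. The log2 ratio was -1.50 at percentile 5 and 1.28 at percentile 95 of these genes. At 4-fold the counts were 199 and 341, and at 16-fold they were 33 and 50, bounds included. Where a signal was not well above background on one array, the fold is a lower bound and is written "at least", and this holds for 20 genes.

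Several properties of the arrays bear on these counts. Day 0 was hybridised on slide 1 and day 2 on slide 2, so day and slide cannot be told apart in control cells. Of the spots, 67.4% were well above background on the day 0 array and 84.2% on the day 2 array. The 231 probes printed 10 times had a median spot SD of the log2 ratio of 0.07, and different probes of the same gene had a median SD of 0.13. Of 272 called genes with several probes, 260 had all probes in 1 direction. Low signals were less certain: in the dimmest of 5 brightness classes 19.8% of genes were higher and 17.8% lower, against 4.1 to 5.7% and 3.3 to 10.2% in the other classes. Just inside the minimum, of 1381 genes whose brighter array read 400 to 800, 22.6% were higher and 11.9% lower. Just outside it, of 1556 genes at 200 to 400, 40.0% were higher and 10.4% lower. Olfactory receptor genes, which are not known to be used by fibroblasts, passed the minimum in 53 of 1063 cases, and 30 of these were higher and 5 lower. On the lamp2a- arrays, where both days shared a slide but not every processing step, 77 of them were compared and none was higher or lower. Genes whose processed signal stayed under 1000 on both arrays are therefore called dim where they are named, and the part of slide and of low signals in their differences was not tested. A gene that passed the minimum on the day 2 array alone reads higher at day 2 through that filter. Its direction is no evidence of a rise.

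**Figure D1:**
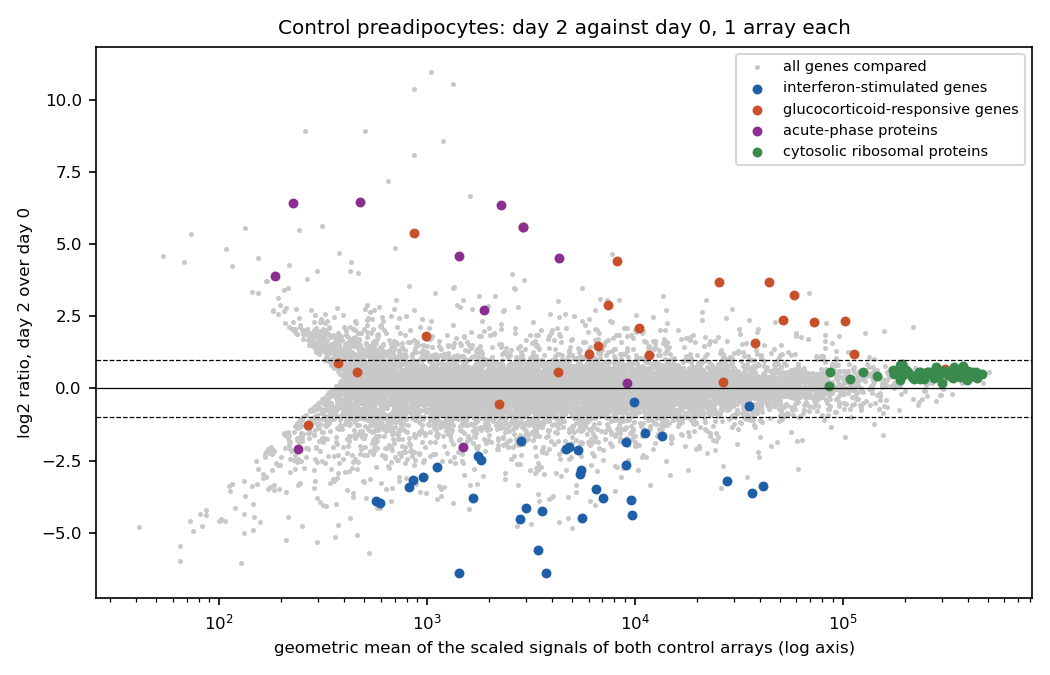
The log2 ratio of day 2 over day 0 (vertical axis) is plotted against the geometric mean of the scaled signals of both control arrays (horizontal log axis) for 11415 genes in grey, with 4 gene classes in colour and dashed lines at 2-fold. The 35 interferon-stimulated genes lie below 0, most glucocorticoid-responsive and acute-phase genes lie above it, and the 76 cytosolic ribosomal proteins sit together at a median of 0.50. Bounds are drawn at their bound.

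Most markers of mesenchymal progenitors were present on both days, and few markers of mature fat cells passed the minimum at either. Of 13 progenitor markers, 12 passed the minimum, with a summed signal over the list of 1112217 at day 0 and 990306 at day 2. Vim, an intermediate filament gene of mesenchymal cells, had signals of 260083 and 336731, and Dlk1, the preadipocyte factor, 325324 and 242529, a difference of 1.34-fold. A dimmer probe of Dlk1 gave a log2 ratio of -1.98. Pdpn, a stromal glycoprotein gene, was 7.15-fold lower, Cd34, a dim progenitor antigen gene, 3.38-fold lower and Pdgfrb, a PDGF receptor gene, 2.81-fold lower, while no progenitor marker was higher by 2-fold. Of 8 adipocyte markers, 3 passed the minimum and all 3 were higher: Lipe, the hormone-sensitive lipase gene, at 156 and 578, Retn, which encodes resistin, at 63.5 and 672, and the lipid droplet gene Cidec, at least 40.6-fold higher. All 3 are dim and passed the minimum on the day 2 array alone. A higher day 2 value follows from that filter, so their shared direction is no evidence of a rise. Adipoq, Cfd, Pck1, Plin1 and Lep stayed under the minimum. No eosinophil marker of 5 and no epithelial marker of 5 passed the minimum. Among 7 macrophage markers Itgam, Csf1r, Cd14 and the dim gene Lyz2 (3.64-fold lower) did, while Adgre1 and Ptprc did not and Cd68 had no named probe. Of 5 endothelial markers, Kdr (3676 and 4913) and the dim gene Pecam1 (382 and 481) passed it. Of 4 skeletal muscle markers, the dim gene Myod1 passed it on the day 2 array alone (161 and 475, a log2 ratio of 1.56).

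Glucocorticoid-responsive genes were higher as a class. Of 25 listed genes 24 were compared, and 17 of these were higher and 1 lower, with a median log2 ratio of 1.70 against 0.01 over all genes. Fkbp5, a chaperone of the glucocorticoid receptor, had signals of 7115 and 92008 at day 0 and day 2 (12.9-fold higher). Tsc22d3, which encodes the anti-inflammatory protein GILZ, had signals of 18955 and 179003 (9.44-fold). Glul, the glutamine synthetase gene, had signals of 1781 and 38138 (21.4-fold). Errfi1, a feedback inhibitor of EGF receptors, had 12255 and 158680.0 (12.9-fold). Zbtb16, a zinc finger factor gene that glucocorticoids raise, had 133 and 5609.9 (42.1-fold). Ddit4, an inhibitor of mTORC1, was 4.98-fold higher and Pdk4, which restrains pyruvate dehydrogenase, 2.80-fold higher. The response was not uniform: Sgk1 at 24598 and 28981 and the metallothionein gene Mt1 at 246859 and 390830.0 stayed under 2-fold, and the dim gene Hif3a was 2.38-fold lower, a call lost in at least 1 other setting. The receptor gene itself, Nr3c1, had signals of 30593 and 22442, a difference of 1.36-fold.

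Of 15 cAMP-responsive genes compared, 10 were higher and none lower, with a median log2 ratio of 1.44. Rgs2, which limits signalling by Gq-coupled receptors, had signals of 21865 and 215808 (9.87-fold higher). The orphan nuclear receptor gene Nr4a1 had 11373 and 76351 (6.71-fold). Sik1, a kinase of the salt-inducible family, was 2.72-fold higher and Gem, a small GTPase gene, 3.39-fold higher. Other genes that follow cAMP were close to day 0: the dim gene Crem, which encodes the repressor ICER, had a log2 ratio of 0.17, Ptgs2 0.22 and the dim gene Nr4a2 -0.06. The phosphodiesterases, the enzymes that isobutylmethylxanthine blocks, differed by isoform. Of 11 compared, 5 were higher and 1 lower. Pde4b had signals of 701 and 6448 (9.20-fold higher), Pde4d 917 and 5930.1 (6.47-fold) and Pde3b, the form through which insulin restrains lipolysis, 2266 and 9738 (4.30-fold). Pde1b, a calmodulin-regulated form, had 1992 and 422 and was 4.72-fold lower. Of 13 genes of adenylyl cyclases, protein kinase A and its partners, 10 were within 2-fold (median -0.16), none was higher and 3 were lower (23.1%, beside 9.07% over all genes): the cyclase gene Adcy7 at 1349 and 79.6 (17.0-fold), the anchoring protein gene Akap12 (6.46-fold) and the kinase inhibitor gene Pkia (3.01-fold). RGS proteins went both ways, 3 of 12 higher and 4 lower, with Rgs3 5.48-fold, Rgs16 2.43-fold and Rgs8 at least 66.4-fold lower.

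Insulin signalling genes had 3 of 22 members higher (13.6%, beside 7.67% over all genes) and 2 lower (9.09%, beside 9.07%), with a median log2 ratio of -0.08, so the list as a whole was near the shares over all genes. The adaptors of the insulin receptor moved apart: Irs1 had signals of 11285 and 3358 (3.36-fold lower) and Irs2 6154 and 11415 (1.85-fold, under the 2-fold size). The receptor gene Insr had 1119.7 and 1399, a difference of 1.25-fold. Pik3r1, the regulatory subunit of PI3 kinase, was 3.60-fold higher and Mtor 3.64-fold higher. Trib3, a pseudokinase that binds AKT, had 85872 and 7809.6 (11.0-fold lower). Among IGF binding proteins, Igfbp4 and Igfbp5 were 4.87-fold and 6.69-fold higher. Feedback genes of the MAP kinase route had 5 of 13 members higher and none lower, or 1 lower with the median of all probes: Dusp1 and Dusp2 by 7.42-fold and 5.40-fold, Dusp6 and Dusp14 by 2.41-fold and 2.38-fold and the dim gene Spry3 by 8.84-fold.

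**Figure D2:**
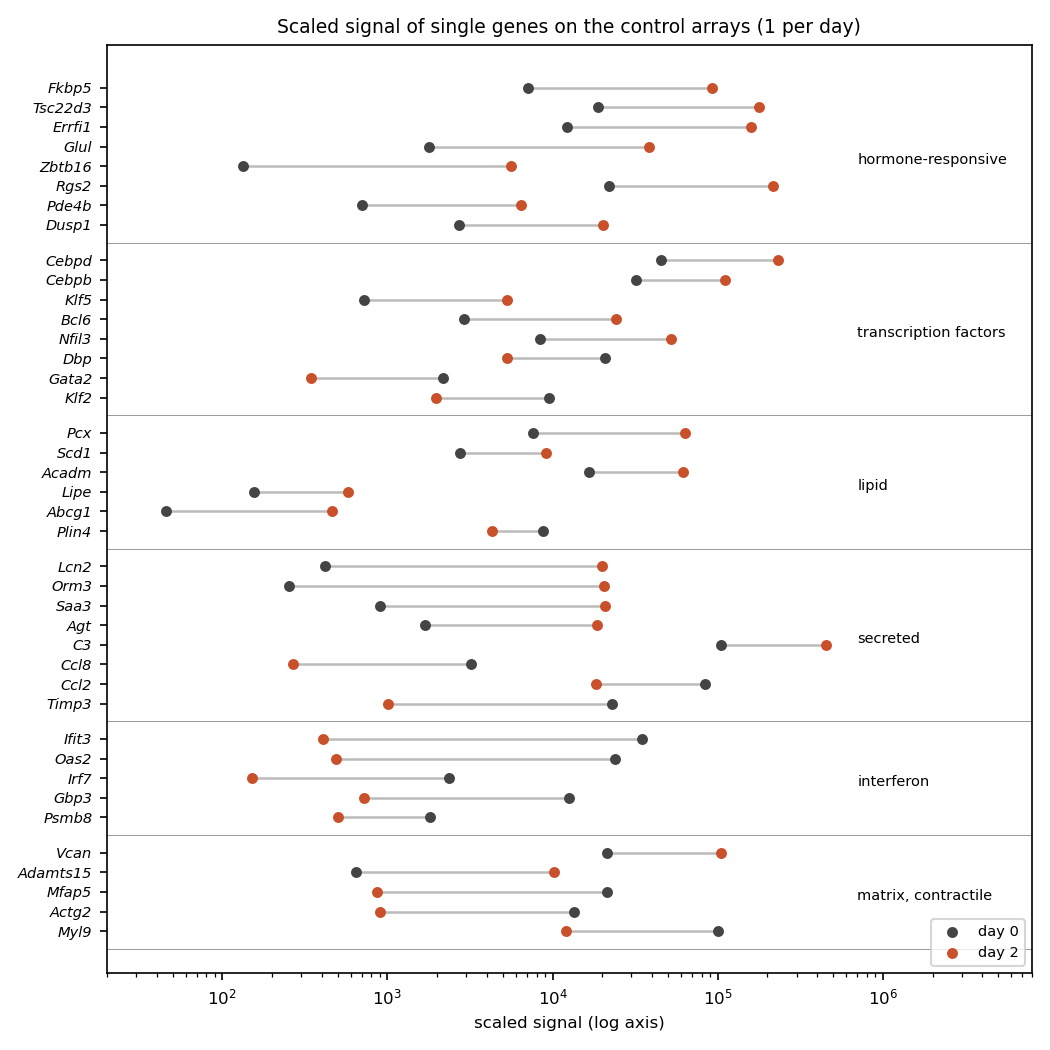
The scaled signal (horizontal log axis) of 40 genes is shown at day 0 (dark points) and day 2 (orange points), 1 array per day and no error bar, grouped by role. Hormone-responsive genes lie to the right at day 2 and interferon genes to the left, for example Fkbp5 at 7115 and 92008 and Ifit3 at 34648 and 409, while transcription factor, lipid, secreted and matrix genes hold both directions.

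Transcription factors of adipogenesis were higher in 10 of 20 cases and lower in 1, with a median of 0.83. Klf5, a Krueppel-like factor that acts between the C/EBP factors and Pparg, had signals of 726 and 5301 (7.30-fold higher). The early pair was higher by 5.08-fold (Cebpd, with signals of 45404 and 230714) and 3.49-fold (Cebpb, 31915 and 111348). The later pair was higher by 2.50-fold (Pparg, 4404 and 11022) and 2.28-fold (Cebpa, 1516 and 3459). Stat5a, a transducer of growth hormone signals, was 2.56-fold higher and its relative Stat5b had a log2 ratio of 0.52. Nfia, a dim nuclear factor I gene, was 2.54-fold higher and Nfib had a log2 ratio of -0.39. The liver X receptor gene Nr1h3 had a log2 ratio of -0.97, and Zfp467 was 2.33-fold lower at its brightest probe, although its probes did not share 1 direction. Genes that hold preadipocytes back were lower in 8 of 20 cases and higher in 1 (median -0.51). Gata2 had signals of 2169 and 344 (6.31-fold lower) and Klf2, a repressor of Pparg, 9522 and 1957 (4.87-fold). Runx2, the bone factor gene, was 2.35-fold lower and Foxc2 5.00-fold higher. Krueppel-like factors thus split, with Klf5 and Klf9 higher and Klf2, Klf7 and, not in every setting, Klf6 lower.

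Of 13 clock genes 4 were higher (30.8%, beside 7.67% over all genes) and 1 lower (7.69%, beside 9.07%), and the median log2 ratio was -0.02. After quantile normalization and after cyclic loess 3 were higher and 2 lower. Per1 and the dim gene Per2, repressors of the clock that glucocorticoids raise, were 4.32-fold and 4.77-fold higher. Nfil3, a repressor at D-box sites, had signals of 8419.6 and 52478 (6.23-fold higher), and Dbp, an activator at the same sites, 20718 and 5306 (3.90-fold lower). The dim gene Hlf, an activator of the same family as Dbp, was 2.24-fold higher, a call lost after quantile normalization and cyclic loess. Arntl, Clock and Cry2 had log2 ratios of 0.30, 0.32 and -0.02. Among immediate early factors, Fosl1 and Fos were 3.79-fold and 2.21-fold higher while Atf3 was 4.78-fold lower. Of 26 nuclear receptors 7 were higher (26.9%, beside 7.67% over all genes) and none lower. After quantile normalization 2 were lower, and after cyclic loess 3. Vdr, the vitamin D receptor gene, had 5237 and 28842 (5.51-fold).

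**Figure D3:**
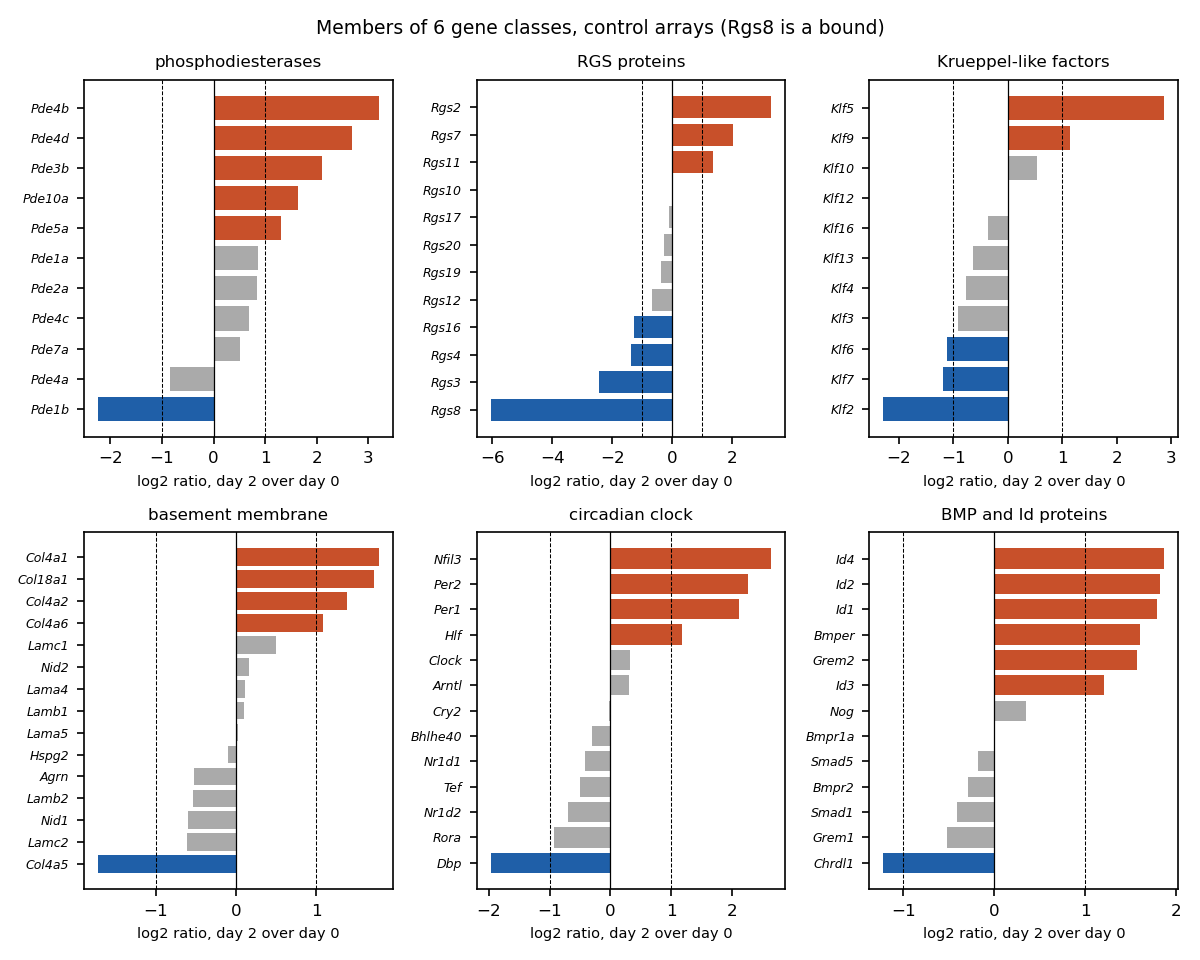
Bars give the log2 ratio of day 2 over day 0 for every compared member of 6 classes, in orange at 2-fold higher, in blue at 2-fold lower and in grey between, with no error bar because each day had 1 array. Each class holds members in both directions, as with Pde4b at 3.20 against Pde1b at -2.24, and Nfil3 at 2.64 against Dbp at -1.97.

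Lipid genes showed single steps of the pathways higher rather than whole classes. Among 26 genes of fatty acid and triglyceride synthesis, 6 were higher (23.1%, beside 7.67% over all genes) and 2 lower (7.69%, beside 9.07%). After quantile normalization and after cyclic loess 4 were higher and 3 lower. Pcx, the pyruvate carboxylase gene that supplies oxaloacetate for citrate export, had signals of 7617 and 63106 (8.28-fold higher). Scd1, the desaturase gene, had 2768 and 9117 (3.29-fold). The acyltransferase genes Agpat5 and Dgat2 were 3.03-fold and 2.32-fold higher, and Me1, the malic enzyme gene, 2.26-fold lower. Of 21 beta-oxidation genes, Acadm, a medium-chain acyl-CoA dehydrogenase gene, was the 1 past 2-fold, at 16663 and 61354 (3.68-fold higher). Fatty acid uptake genes had 3 of 12 members higher (25%, beside 7.67% over all genes). Fabp4, the adipocyte fatty acid carrier, had 799.6 and 8761 (11.0-fold). Acsl1 was 2.46-fold and Acsl4 2.04-fold higher, the last a call lost in at least 1 other setting. Lipid droplet and lipolysis genes were higher in 5 of 9 cases (55.6%, beside 7.67% over all genes) and lower in 2 (22.2%, beside 9.07%). The 5 include the dim genes Cidec and Lipe, which passed the minimum on the day 2 array alone. Their direction follows from that filter and is no evidence of a rise. The class median was 1.29, and it was negative at a higher signal minimum, where fewer genes enter. Pnpla2, the triglyceride lipase gene, had 8182 and 24934 (3.05-fold higher), and its coactivator gene Abhd5 4408 and 15879.8 (3.60-fold). Coat protein genes of the droplet were lower instead, Plin2 by 2.01-fold and Plin4 by 2.02-fold, both calls lost in at least 1 other setting. In cholesterol synthesis 4 of 25 genes were lower (16%, beside 9.07% over all genes) and 1 higher (4%, beside 7.67%), with a median of -0.44. Fdps and Fdft1, enzymes of the route, were 2.13-fold and 2.06-fold lower, Fdft1 not in every setting. Insig1, a sterol sensor gene that was dim, was 2.42-fold lower. The cholesterol efflux pump gene Abca1 was 3.05-fold higher.

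Secreted proteins held the largest higher values. Among 11 acute-phase genes 8 were higher (72.7%, beside 7.67% over all genes) and 2 lower (18.2%, beside 9.07%). The median log2 ratio was 4.52. Members such as Hp and Orm1 passed the minimum on the day 2 array alone, so their direction follows from that filter and raises this median. Lcn2, which encodes the iron-siderophore carrier lipocalin 2, had signals of 419.7 and 20041 (47.8-fold higher). Hp, the haptoglobin gene, had 291 and 6989 (24.0-fold), and Saa3, a serum amyloid gene, 908 and 20793 (22.9-fold). The orosomucoid genes were higher by at least 85.5-fold (Orm1), 88.0-fold (Orm2) and 81.4-fold (Orm3), and being near-identical copies they may share probes. Complement genes split, with C3 at 104275 and 455540.0 (4.37-fold higher) against the dim gene Cfb 10.1-fold lower, C1s1 at 34913 and 8728 and C1ra 3.18-fold lower. Eosinophil-associated ribonucleases had 5 of 7 compared members higher (71.4%, beside 7.67% over all genes) and none lower. The 5 were Ear2 at 34.7 and 51992, Ear10 at 52.6 and 14162, Ear6 at 159.6 and 16152, Rnase2a at 61.4 and 23126 and Ear1, at least 1333-fold higher. All 5 passed the minimum on the day 2 array alone, so their shared direction follows from that filter. They are near-identical copies, so which member a probe reads is uncertain, and the eosinophil markers Epx, Prg2, Siglecf, Il5ra and Ccr3 were under the minimum on both arrays. Retnla, a resistin-like gene, and Pip, a secretory glycoprotein gene, did not rise well above background on the day 0 array and were at least 482-fold (Retnla) and at least 1992-fold (Pip) higher. Prg4, the lubricin gene, had 53.5 and 7877 (147-fold higher). Of the adipokines, Agt, which encodes angiotensinogen, and Angptl4, an inhibitor of lipoprotein lipase, were 11.0-fold and 5.20-fold higher, and Rarres2, which encodes chemerin, 4.26-fold lower.

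Chemokines were lower more often than higher, 7 against 3 of 15. Ccl8 had signals of 3200.3 and 269 (11.9-fold lower), Ccl2, which draws monocytes, 84058 and 18278 (4.60-fold) and Cxcl10, an interferon-induced chemokine, 10315 and 1873 (5.51-fold). Ccl17 was 3.36-fold and the B-cell attractant Cxcl13 at least 486-fold higher. Of 18 genes with an interleukin receptor symbol 8 were higher and 4 lower. The largest of the 8 was Il1rn, with signals of 117 and 1874, which encodes a secreted antagonist of the interleukin 1 receptor and not a receptor. Nfkbia, which encodes the NF-kB inhibitor IkB-alpha, had 21865 and 65665 (3.00-fold higher). Of 16 genes of interferon sensing and receptors 5 were lower and 1 higher, and 10 were within 2-fold (median -0.08). The lower ones include the pattern receptor genes Tlr2, Tlr3 and Tlr4, at 4.69-fold, 5.11-fold and 2.31-fold, and the higher one was the interferon regulatory factor gene Irf2 at 2.11-fold.

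Interferon-stimulated genes were lower almost throughout. Of 42 listed genes 35 were compared, and 33 were lower and none higher, against 9.07% lower over all genes, with a median log2 ratio of -3.22. Ifit3, whose product binds viral RNA complexes, had signals of 34648 and 409 (84.7-fold lower). The 2′-5′ oligoadenylate synthetase genes Oas2 and Oas1a had 23892 and 489.8 and 44346 and 2134 (48.8-fold and 20.8-fold). Isg15, a ubiquitin-like modifier, had 127837 and 10506 (12.2-fold), and Usp18, which removes it, 13489 and 588 (22.9-fold). These signals spanned bright and middling probes alike. The transducers of the response were lower too: Irf7 by 15.6-fold, Irf9 by 6.23-fold and Stat2 by 3.17-fold, and the RNA sensors Ifih1, Ddx58 and Dhx58 by 5.08-fold, 3.61-fold and 6.55-fold. Trim25 and Ifi35 had log2 ratios of -0.62 and -0.48, and Oas3, Oasl1 and Oas1g were under the minimum. Guanylate-binding and immunity-related GTPases, which attack the vacuoles of pathogens, followed: 12 of the 14 compared were lower (median -3.00), and some of them are also on the interferon list. Gbp3 had 12519 and 717 (17.5-fold) and Igtp 21942 and 1946 (11.3-fold). In the MHC class I route 8 of 14 genes were lower and none higher: Nlrc5, its transcriptional activator, by 5.79-fold, the peptide transporter gene Tap1 by 3.39-fold and the immunoproteasome subunit gene Psmb8 by 3.60-fold. Of 37 proteasome subunit genes in all, Psmb8, Psmb9 and Psmb10 were the 3 lower ones.

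**Figure D4:**
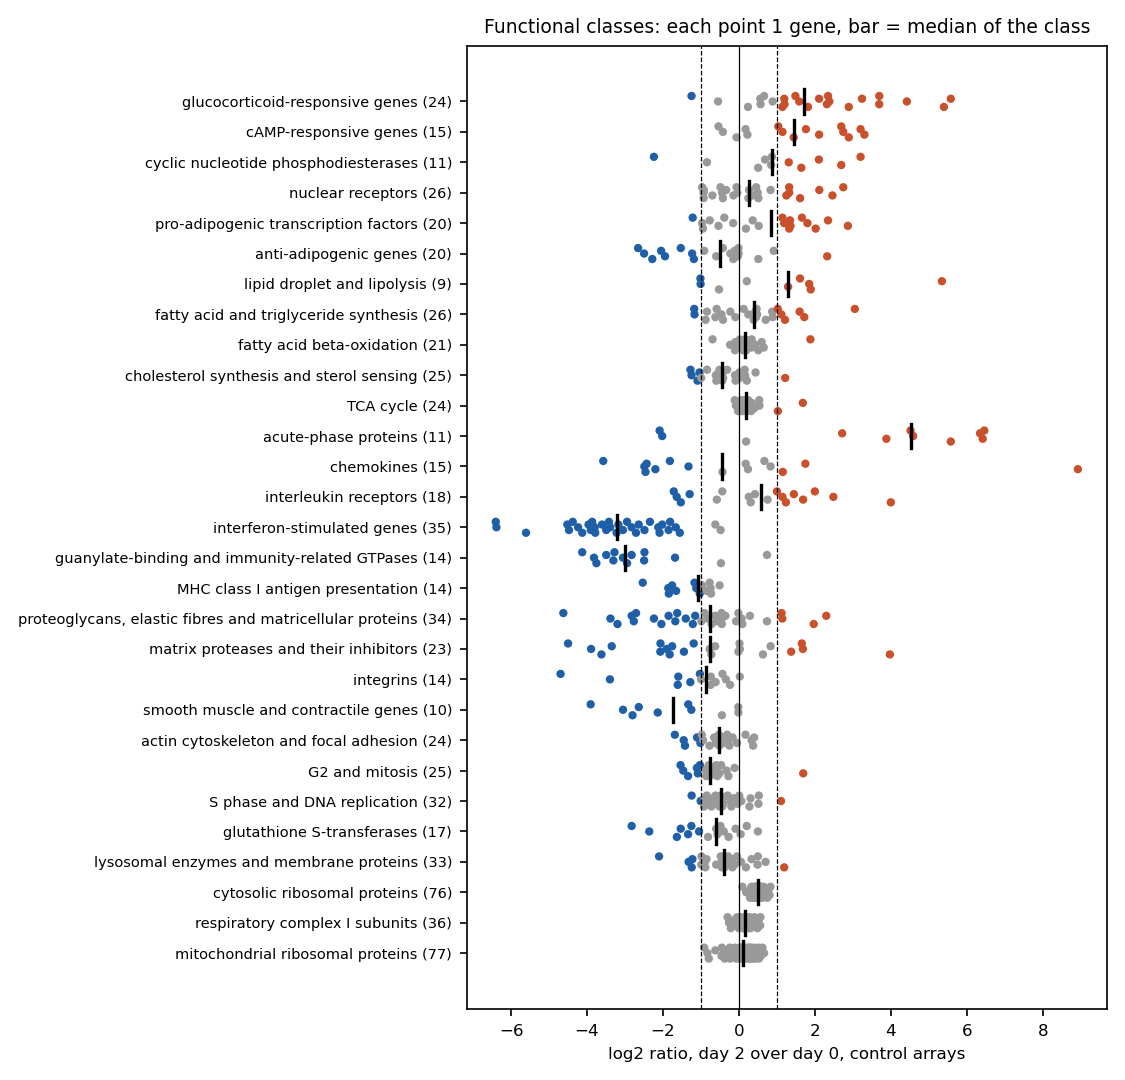
Each point is the log2 ratio of day 2 over day 0 of 1 gene on the control arrays, by functional class, with the number of compared genes in brackets, the class median as a black bar and dashed lines at 2-fold. Medians run from 4.52 for acute-phase proteins to -3.22 for interferon-stimulated genes, and the members of the 3 classes of ribosomal, mitochondrial ribosomal and complex I proteins lie within 2-fold. Some acute-phase and lipid droplet genes passed the minimum at day 2 alone and are higher through that filter.

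Matrix genes were lower more often than higher. Among proteoglycans, elastic fibre and matricellular genes 14 of 34 were lower and 4 higher, with a median of -0.77. Mfap5, a microfibril gene, had signals of 21424 and 868 (24.7-fold lower), and Fmod, which encodes the collagen-binding fibromodulin, 2231 and 243 (9.18-fold). Vcan, the gene of the large proteoglycan versican, had 21248 and 104576 (4.92-fold higher), as did its protease gene Adamts15 with 649 and 10192 (15.7-fold). Matrix proteases and their inhibitors had 11 of 23 members lower and 4 higher, among them Timp3 at 22746 and 1005 (22.6-fold lower), Mmp9 at 1548 and 126 (12.3-fold) and Htra1 at 2583 and 174 (14.9-fold). Collagens of the interstitium differed less: 3 of 16 were lower (18.8%, beside 9.07% over all genes) and 1 was higher (6.25%, beside 7.67%). Col8a1 was lower by 15.1-fold. In the basement membrane Col4a1, Col4a2 and Col18a1 were 3.42-fold, 2.60-fold and 3.29-fold higher and Col4a5 3.29-fold lower. Loxl4 and Loxl3, which crosslink collagen, were 5.71-fold and 2.42-fold lower.

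Integrin and contractile genes were lower in part, and neither list had a member higher by 2-fold. Of 14 integrin genes 6 were lower, Itga11, a collagen receptor, at 3949.7 and 375 (10.5-fold). Of 10 smooth muscle and contractile genes 7 were lower, with a median of -1.74: Acta2, the smooth muscle actin gene, had 160536 and 23004 (6.98-fold), Myl9, a myosin light chain, 100507 and 12105 (8.30-fold) and Tagln, which encodes transgelin, 15429 and 2478 (6.23-fold). Targets of the mechanosensitive YAP factor had 5 of 15 members lower, Ankrd1 by 14.1-fold and Ccn2 by 4.12-fold, and Tead4, a DNA-binding partner of YAP, 3.03-fold higher. Actb, the cytoplasmic actin gene, had 357063 and 449511, a difference of 1.26-fold.

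Signalling genes of growth factor families held members in both directions. In the BMP route 6 of 13 genes were higher and 1 lower, the Id repressor genes Id1, Id2 and Id4 by 3.45-fold, 3.54-fold and 3.64-fold. In the TGF-beta and activin route 2 of 26 were higher (7.69%) and 3 lower (11.5%), near the 7.67% and 9.07% over all genes. Tgfbr3, the betaglycan gene, had signals of 19043 and 80085 (4.21-fold higher), and the ligand gene Tgfb3 15342 and 4684 (3.28-fold lower). In the Wnt route 4 of 27 were higher (14.8%, beside 7.67% over all genes) and 7 lower (25.9%, beside 9.07%), with a median log2 ratio of 0.01. The higher count was 3 after quantile normalization and 2 after cyclic loess. Wnt4 was 4.57-fold and Lef1, a target factor, 2.76-fold higher. Sfrp2, a secreted modulator, was 13.3-fold, Wnt9a 4.73-fold and Wnt6 2.89-fold lower. Among 34 genes of the VEGF, PDGF, FGF and EGF families 6 were higher (17.6%) and 8 lower (23.5%), and 20 were within 2-fold. Over all genes these shares were 7.67% and 9.07%. Vegfa was 2.78-fold higher and Vegfb 2.96-fold lower. Fgf10, which supports preadipocytes, and Hgf were 2.60-fold and 2.47-fold higher, and Hbegf, an EGF receptor ligand, 4.51-fold lower. Semaphorins and plexins, guidance ligands and receptors, had 6 of 17 members lower and 1 higher.

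Cell cycle classes had medians below that of all genes. In G2 and mitosis 6 of 25 genes were lower (24%, beside 9.07% over all genes) and 1 higher (4%, beside 7.67%), with a median log2 ratio of -0.77. In S phase 2 of 32 were lower (6.25%, under the 9.07% over all genes) and 1 higher (median -0.48). Anln, a cytokinesis scaffold, had signals of 16134 and 5557 (2.90-fold lower) and the kinesin gene Kif23 2469 and 893 (2.76-fold). Top2a, the topoisomerase gene of dividing cells, had 2751 and 8886 (3.23-fold higher), the opposite way. Myc was 3.08-fold higher, but of 33 genes of its network and of ribosome biogenesis only Myc and the dim gene Cad, the latter not in every setting, passed 2-fold. The 76 cytosolic ribosomal protein genes had a median of 0.50, or 0.04 after quantile normalization, and none passed 2-fold, or 1 with the median of all probes. None passed it among 77 mitochondrial ribosomal protein genes, 36 complex I subunits, 17 ATP synthase subunits and 15 vacuolar ATPase subunits either. Gapdh, a glycolysis gene with 7 probes, gave log2 ratios of 0.33 to 0.68.

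Amino acid and stress genes differed at a few steps. Of 27 amino acid genes 5 were higher (18.5%, beside 7.67% over all genes), among them Glul and the transporter gene Slc43a2 (4.23-fold). Another 8 were lower (29.6%, beside 9.07% over all genes). Among these, Slc6a9, a glycine transporter gene, had 22834 and 3350.4 (6.82-fold) and the arginine transporter gene Slc7a1 24157 and 6513 (3.71-fold). The serine route was lower at Phgdh, its first enzyme, with 46462 and 13127 (3.54-fold), at Psph with 3.03-fold and at the folate enzyme gene Aldh1l2 with 9081 and 1202 (7.56-fold). Of 27 genes of the unfolded protein and integrated stress responses, 5 were lower (18.5%, beside 9.07% over all genes) and none higher. The 5 include factors and targets of the ATF4 branch. Chac1, which degrades glutathione, had 27507 and 2344 (11.7-fold), Ddit3, which encodes CHOP, 18338 and 4755 (3.86-fold) and Herpud1 40644 and 9486 (4.28-fold). The median of that class was 0.04, or -0.13 after quantile normalization. Of 17 glutathione S-transferases 7 were lower and none higher (median -0.60), led by Gstt1 at 12431 and 1753 (7.09-fold). Gclc and Gclm, the 2 subunits of the enzyme that starts glutathione synthesis, went apart, Gclc 4.09-fold higher and Gclm 2.97-fold lower. The small heat shock gene Cryab had 37999 and 3723 (10.2-fold lower), and Hmox1, the haem oxygenase gene, 3.72-fold lower. In iron and zinc handling, the zinc importer gene Slc39a14 had 2513 and 16634 (6.62-fold higher) and the iron exporter gene Slc40a1 4056 and 763 (5.32-fold lower). Of 33 lysosomal genes 4 were lower (12.1%, beside 9.07% over all genes) and 1 higher (3.03%, beside 7.67%), with a median of -0.40. Lamp2 had 107560.0 and 95282, a difference of 1.13-fold.

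The lamp2a- arrays of day 0 and day 2 shared slide 2 and give a comparison of the days within a slide. The brightest probe of Lamp2 had 83766 and 87811 on them, beside 107560.0 and 95282 in control cells, and the files do not say which splice forms that probe reads. Of 11689 genes compared there, 6.19% were higher and 10.4% lower. The glucocorticoid list had 14 of 23 members higher and 1 lower with a median of 1.16, beside 1.70 in control cells. The cAMP list had 12 of 15 higher and 1 lower with a median of 2.46, beside 1.44. Of 36 interferon-stimulated genes 32 were lower, at a median of -2.62 beside -3.22. Acute-phase genes had a median of 3.04, beside 4.52, and contractile genes -0.81, beside -1.74. Among single genes the log2 ratio within the slide was 2.89 for Fkbp5, 4.73 for Rgs2, 1.36 for Klf5 and -3.61 for Oas2, against 3.69, 3.30, 2.87 and -5.61 across slides in control cells. For Pparg it was -0.11 against 1.32, for Gata2 -0.06 against -2.66 and for Klf2 -0.27 against -2.28. For genes of G2 and mitosis the median was -1.67 against -0.77. No difference between the 2 kinds of cell was tested, since each comparison rests on 1 array per group. The comparison within the slide also has limits of its own. Of the 4 arrays, only that of lamp2a- day 0 was processed without a multiplicative detrending. Spots well above background made up 88.6% at day 0 and 78.7% at day 2 in lamp2a- cells, against 67.4% and 84.2% in control cells. The part of these properties in the lamp2a- values was not tested.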

How the data were processed

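Total RNA of 4 cultures of 3T3-L1 cells was hybridised with the dye Cy3 to Agilent mouse arrays of design 028005, with 1 array for each culture (per the labels' protocols and the headers). Per the file headers, the arrays were read with Agilent Feature Extraction 10.7.3.1, which subtracted a spatial background, and a multiplicative detrending followed on every array but that of lamp2a- day 0. The authors deposited the processed signals of each array as linear intensity, without normalization across arrays, and those of control day 0 are rounded to 3 significant digits.

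Control spots and spots marked as non-uniform or as population outliers were left out. From the deposited intensity values, the log2 level of each spot was computed relative to its array's 75th percentile, and repeat spots were averaged. Of 55681 probes, 27650 were named through RefSeq accessions in a table of assembly GRCm38.p6. Each gene is represented by the probe that was brightest on average on the 4 arrays. A difference of 2-fold calls a gene, and with 1 array per group no test was run.

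The classes (70 lists and 51 families by symbol) and other members were chosen with earlier results of these data known. The rule for named genes took the 12 largest differences and 5 largest bounds in each direction, up to 4 of each list and 3 of each family in each direction, and 14 genes in every case. Genes printed beyond it (Arntl, Ccl2, Clock, Crem, Cry2, Ddit4, Ddx58, Dhx58, Dusp14, Fkbp5, Gem, Hp, Ifi35, Ifih1, Igtp, Irf7, Irf9, Isg15, Mt1, Nfia, Nfib, Nr1h3, Nr4a2, Oas1a, Pdk4, Ptgs2, Runx2, Saa3, Sgk1, Sik1, Stat2, Stat5a, Stat5b, Tlr4, Trim25, Tsc22d3, Vim and Wnt6) were chosen after their values were seen, to complete a class. The markers of cell types, the promoters of Ifit1 and Irgm1 and the names of genes under the signal minimum also stand outside that rule. Alternatives were quantile and cyclic loess normalization, another centring, normexp with an offset of 50, other signal minimums, the median of probes, outlier spots kept and a 1.5-fold size. Tested on simulated data for control day 2 against day 0, over 19290 probes, the calling rule found 100 of 100 probes made 3-fold higher and 100 of 100 made 4-fold lower. The changed probes were drawn only from those far over the signal minimum at day 0. Noise was small, and the background marks of day 0 stood for both days. This recovery therefore checks the arithmetic of the rule and cannot speak for dim probes or for slides. Software was limma 3.58.1 in R 4.3.3, and Python 3.11.15 with pandas 2.3.3, numpy 2.4.6 and matplotlib 3.10.9. Some members of the classes are counted but not reported here by name.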

Additional observations from a re-analysis of the deposited data

Results flagged for a closer look

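Among the genes taken by the rule for named genes, 4 differed past 2-fold between day 0 and day 2 in opposite directions in control and in lamp2a- cells. The difference between the 2 kinds of cell was not tested, and each value rests on 1 array per day. The log2 ratio of Aspn, which encodes the small leucine-rich proteoglycan asporin, was 1.12 in control and -1.89 in lamp2a- cells. That of Gpr149, an orphan receptor gene, was 1.34 and -1.94. For Aldh3a1, an aldehyde dehydrogenase gene, it was 1.34 and -1.10. Slfn2, a schlafen gene, went the other way, with -1.76 in control and 1.47 in lamp2a- cells.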

How the results depend on the processing

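No paired analysis was possible because each group had 1 array. The number of genes higher at day 2 was 875, and it was 639 to 935 under the other scalings and normexp. It was 1499 at a signal minimum of 200, 501 at 1000 and 3762 with no minimum, where the median of all genes also moved by 0.18, so this count depends on how dim a gene may be. The number of genes lower, 1035, was 966 to 1510 in every setting that kept the 2-fold size except at a minimum of 1000, where it was 816. With a 1.5-fold size the counts were 1796 and 2005. The share of called genes that were higher, 45.8%, was 37.0% after quantile normalization, 33.6% after cyclic loess, 48.9% with the other centring, 55.5% at a minimum of 200, 38.0% at 1000 and 71.4% with none. Of 429 named genes past 2-fold, 369 stayed past it in the same direction in each setting that kept the signal minimum and the 2-fold size, and 60 did not in at least 1.

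Some results reversed. The median of the lipid droplet and lipolysis class, 1.29, was -0.53 at a minimum of 1000, where fewer genes enter. As the median of all probes, Zfp467 had a log2 ratio of 0.28 and Tspan32 one of 0.38. Kndc1 was at 1.02 with no minimum, and Mybpc1 at 0.96 with a minimum of 200 or none, because another probe then stands for the gene. For Zfp467 and Tspan32 the cause was not tested.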

Other observations

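Single genes outside the classes described above were among the largest differences. Dio2, which encodes the deiodinase that activates thyroid hormone, had scaled signals of 36.3 at day 0 and 1624 at day 2 and was 44.7-fold higher. Fam110c, a centrosome-associated protein gene, had 129.6 and 3820.2 and was 29.5-fold higher. Cryge, a lens crystallin gene, had 44.3 and 2208 and was 49.9-fold higher. Among lower genes, Gpr176, an orphan receptor gene, had 3799.9 and 73.5 (51.7-fold), and the adhesion receptor gene Adgrg6 had 1869 and 47.3 (39.5-fold). Gpnmb, a transmembrane glycoprotein gene, had 2160.0 and 60.5 (35.7-fold), and Cdsn, which encodes corneodesmosin, 26626 and 928.7 (28.7-fold). Each of these genes was read on both arrays, and the scanner software marked also its lower value as well above background.

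Of 6171 probes over the minimum that have no gene name here, 1145 were higher and 298 lower. Over all 20678 probes above the minimum, named or not, 2181 were higher and 1550 lower. Unnamed probes thus made up a larger part of the higher probes than of the lower ones, and the part of low signals in this was not tested. Genes with an interleukin receptor symbol, which take in the antagonist gene Il1rn, had a median log2 ratio of 0.59, and the interleukin genes themselves, 7 of which were compared, had none past 2-fold. Of 9 adrenergic receptor genes 3 passed the minimum and 1, Adra1d, was lower.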
